A study of Mus musculus with 9 samples.

Results

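The genes described here encode the enzymes that oxidise, reduce and conjugate small molecules: the cytochrome P450s (CYP), aldehyde dehydrogenases (ALDH), aldo-keto reductases (AKR), UDP-glucuronosyltransferases (UGT) and sulfotransferases (SULT). They were chosen by gene name from the deposited count table, leaving out the cholesterol-synthesis enzyme Cyp51 and genes named as pseudogenes, and had to hold 50 or more counts over the 9 libraries. The rule gave 69 of the 55487 genes in the table: 27 CYP, 18 ALDH, 13 AKR, 6 UGT and 5 SULT genes. Of the 181 genes of these families in the table, 76 had no count at all. Just inside the threshold were Sult5a1 with 53 counts and Sult1a1 with 66, and just outside it Ugt1a9 with 45 and Cyp2c23 with 38. Of the 69 members, 66 passed the filter on low counts and were tested; Aldh3b2, Cyp26c1 and Sult5a1 were not. Exon bases are shared with another gene on the same strand in 11 members and with a gene on the other strand in 20, among them Akr1b7, Aldh2, Aldh5a1, Aldh1l2, Aldh6a1, Aldh7a1, Cyp11b1 and Sult2b1; since the strand setting of the counting is not stated, their levels may hold reads of the partner.

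All 9 libraries came from PT-22, a mouse cell line labelled as kidney proximal tubule, with the genotype Pax2-/-, Pax8fl/fl, Rosa-CreERT2 and the vector Pax8-pTRIPZ, which expresses Pax8 when doxycycline is given. In all, 3 groups of 3 libraries were compared: cells without treatment (day 0), those at day 6 following 4-hydroxytamoxifen at 1 uM (which activates the Cre recombinase that deletes floxed Pax8), and cells at day 12 after doxycycline at 1 ug/ml that followed the tamoxifen. The study asked what returning PAX8, a transcription factor of kidney and thyroid, does to expression once it has been lost. No library with vehicle alone, none untreated after day 0 and none at day 12 without doxycycline was analysed here, so time in culture, each drug and PAX8 cannot be told apart. Whether the lettered replicates are independent cultures is not stated, nor whether the line is 1 clone. The p-values therefore set differences between groups only against the spread of libraries within groups, and that spread may be technical.

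Library totals ran from 56397100 to 86765292 counts, and a single count stood for 0.0119 to 0.0172 CPM, the TMM-normalised unit used below. The share of mitochondrially encoded counts was 6.66% to 7.18% at days 0 and 6 and 2.1% to 3.96% at day 12, the highest of the last in replicate B; with scaling factors computed without these genes, the numbers of members called in each direction and comparison were the same as those below. Counts of Pax8 itself averaged 291 CPM in untreated cells and went up, to 405 CPM after tamoxifen and 495 CPM after doxycycline, against the label of depletion; a count over the whole gene does not check a deletion of some exons, and reads of the vector's Pax8 may be counted with it. The groups are therefore called by day. Pax2, labelled as deleted, was counted at 31.9 to 52.3 CPM on average. Of 17 markers of the proximal tubule, 5 were tested and 5 (Slc34a1, Slc5a12, Slc22a6, Slc22a12 and Kap) had no count. The tested ones moved in different directions over days 0, 6 and 12: Lrp2 stood at 391, 58.7 and 71.7 CPM, Cubn at 2.86, 1.97 and 2.32, Ggt1 at 1.72, 0.323 and 2.19, Aqp1 at 119, 324 and 328, and Anpep at 9.98, 26.3 and 21.8. Hepatocyte markers, checked because liver is rich in the same enzymes, summed to at most 0.133 CPM, with Ttr, Serpina1a, Cyp2e1 and Cyp3a11 at 0 counts. The 6 stromal markers summed to 7.95 to 8.42 CPM in day 0 libraries, 6.71 to 6.96 at day 6 and 11 to 12.9 at day 12, and the 5 immune markers to 16.4 to 18.6, 14.8 to 16.6 and 13.4 to 14.9 CPM, mostly Cd68 and with Cd3e at 0. Within these sums Dcn went from 4.92 to 0.442 and 5.08 CPM, Pdgfrb from 0.0762 to 2.45 and 1.52, and Ptprc from 2.12 to 0.0299 and 0.275. The part of all these markers in the results was not tested. In such bulk RNA, fewer cells that express a gene and less RNA per cell cannot be told apart.

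P450s are haem enzymes that insert oxygen into their substrates with electrons from partner reductases, in the endoplasmic reticulum or in mitochondria. Aldehyde dehydrogenases oxidise aldehydes to acids and aldo-keto reductases reduce carbonyl groups to alcohols. Glucuronosyltransferases and sulfotransferases then attach glucuronic acid or sulfate, which makes many compounds easier to excrete. In the kidney the proximal tubule makes active vitamin D with Cyp27b1, and the developing kidney depends on retinoic acid made by Aldh1a enzymes and removed by Cyp26 enzymes.

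Between day 0 and day 6, 28 of the 66 members tested rose and 26 fell. Among all 16353 genes tested, 33.5% rose and 31.4% fell in the same comparison, so change was common throughout. The median size of the log2 fold change was 0.74 among the members and 0.319 among all genes. At least 2-fold higher at day 6 were 16 members, and 12 were at least 2-fold lower, where 9.66% and 4.65% of all genes were. The threshold of 50 counts favours members that are high on one day: 6 of the 16 and 3 of the 12 would hold fewer if all 3 days were at the lower of the levels on days 0 and 6. The 6 were Aldh1l1, Cyp11a1, Cyp11b1, Cyp21a1, Cyp27a1 and Sult1a1, and the 3 were Aldh1a7, Cyp27b1 and Cyp4a12a. For them the choice of members favours the change seen. Without these 9, 10 of 57 members were at least 2-fold higher and 9 lower, and the median size was 0.63. These counts describe the members and test nothing about them. The families differed in their counts: 14 of 26 CYP genes rose and 7 fell, 3 of 17 ALDH genes rose and 10 fell, and 6 of 13 AKR genes rose and 6 fell. Of the UGT genes, 2 of 6 rose and 3 fell, and 3 of 4 SULT genes rose.

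Between day 6 and day 12, 26 members rose and 11 fell, where 22.6% and 22.7% of all genes did. All 9 ALDH genes that changed rose. On the log2(TPM + 1) scale the split was 37 risen and 5 fallen; that scale moved the median of all genes by 0.164 between these days, and once the TPM were rescaled to remove this shift 22 rose and 11 fell. Without replicate C of day 12, 7 fell. Between day 0 and day 12, 34 members were higher and 19 lower, against 34.7% and 31.7% of all genes; log2(TPM + 1) gave 39 and 13, and the rescaled TPM 31 and 19. The count threshold for members bears on these numbers too. Some members would miss it if all days were at the lower of the levels compared. Without the 3 such members for day 6 and day 12, 24 of 63 rose and 11 fell. Without the 6 such members for day 0 and day 12, 29 of 60 were higher at day 12 and 19 lower. The comparisons share libraries, and each is given by its own values.

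**Figure D1:**
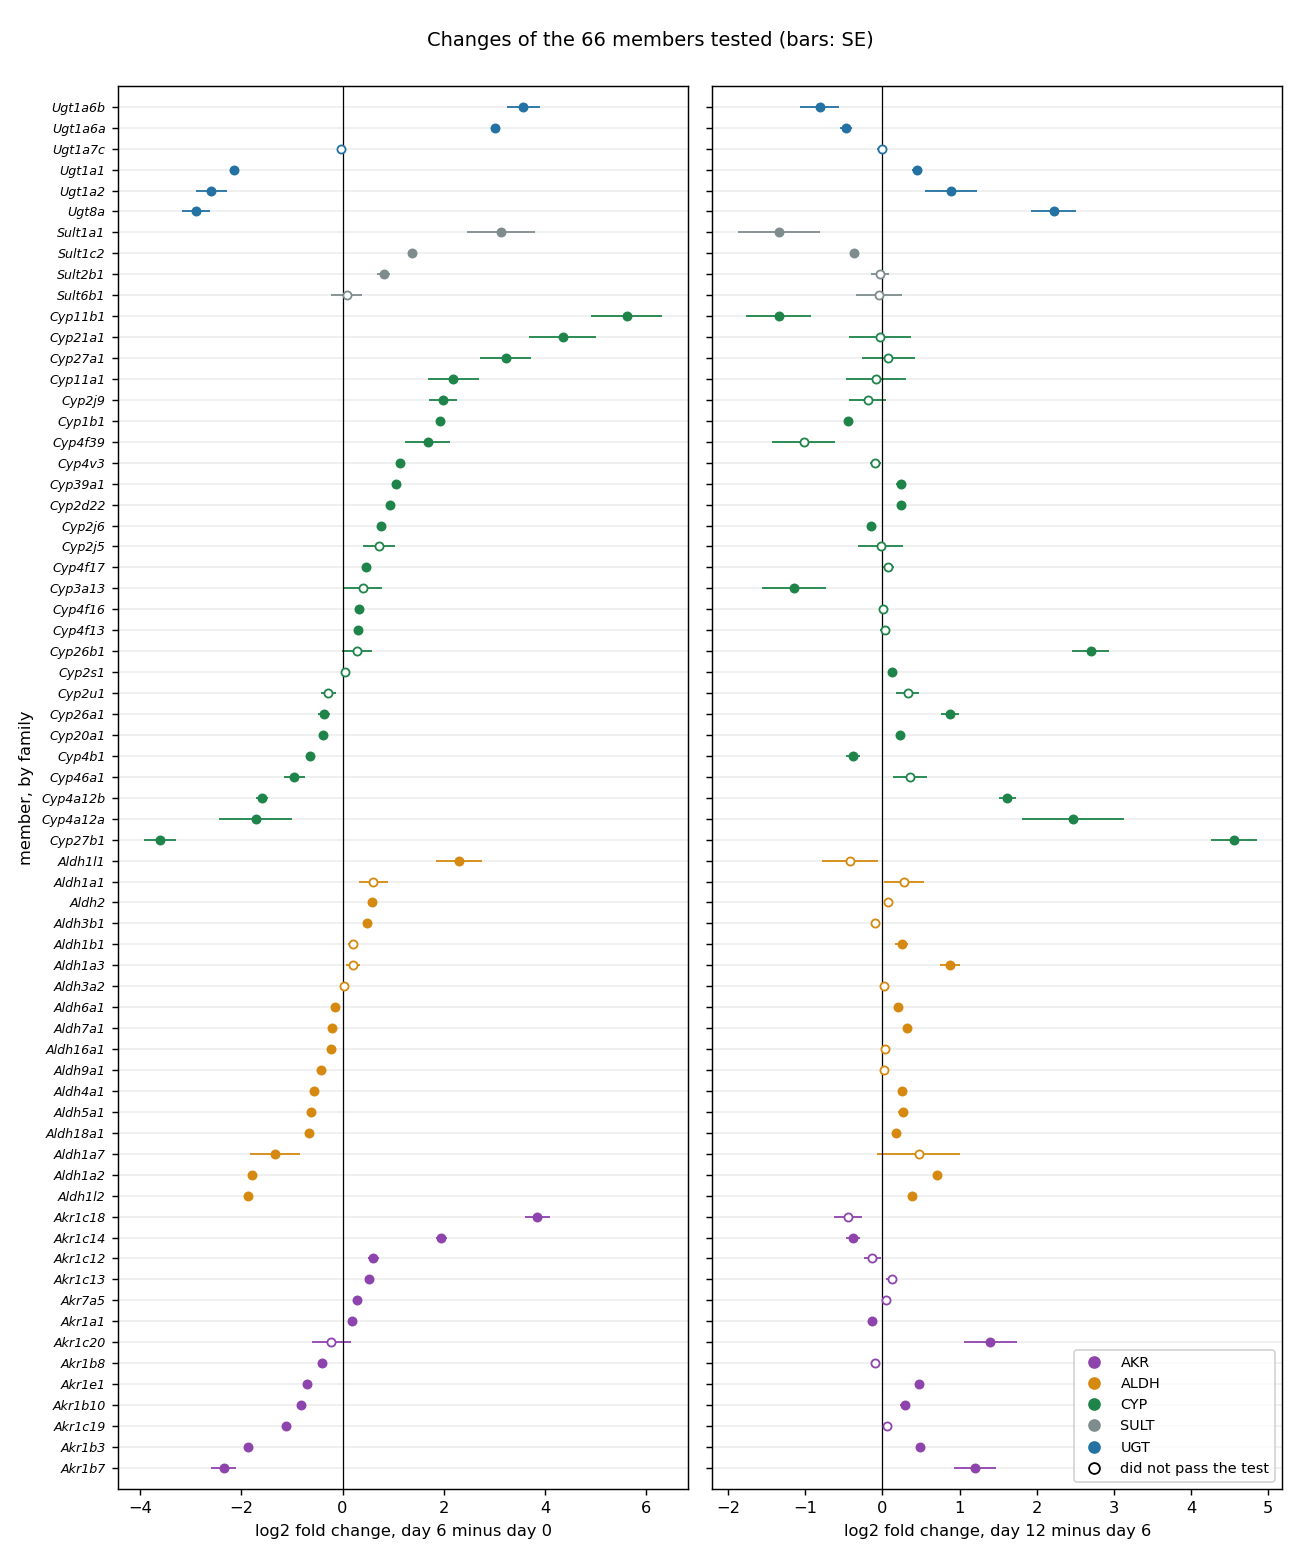
Log2 fold change of each of the 66 members tested, day 6 minus day 0 on the left and day 12 minus day 6 on the right, coloured by family; bars are the SE, and open circles did not pass the test at an adjusted p of 0.05. At day 6 the AKR, ALDH, CYP and UGT members spread to both sides of 0. The largest rise from day 6 to day 12 is that of Cyp27b1 at 4.55.

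Summed over a family, CYP transcripts went from 198 ± 2.05 CPM (SD, n = 3) in untreated cells to 276 ± 6.01 by day 6 and 276 ± 6.37 by day 12. The ALDH sum went from 1130 ± 12.4 to 785 ± 11.4 and 891 ± 5.96 CPM, and the AKR sum from 793 ± 30.4 to 625 ± 12.1 and 628 ± 7.86 CPM. Day 0 lay apart from the other days in all 3 sums, with no overlap between its libraries and theirs. In the authors' TPM the ALDH sum was 633 ± 5.2, 549 ± 3.35 and 706 ± 16.4, so that day 12 lay above day 0 there and below it in CPM. The AKR sum was 903 ± 24.2, 726 ± 12.1 and 840 ± 29.7 TPM, with a rise from day 6 to day 12 that the CPM do not show. In log2(TPM + 1) the median of all genes also moved up, by 0.164 from day 6 to day 12. From day 0 to day 12 that median moved by 0.186, and its part in these sums was not tested. The SULT sum was 35.2 ± 0.418, 89.5 ± 1.18 and 69.8 ± 2.9 CPM, nearly all of it Sult1c2.

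Cyp27b1, the 25-hydroxyvitamin D 1-alpha-hydroxylase that makes the active hormone, had the largest change of the CYP genes with 1 CPM or more in a group. Its libraries held 0.752, 0.719 and 0.591 CPM at day 0, 0.0443, 0.0405 and 0.086 at day 6, and 1.29, 1.29 and 1.42 at day 12. The 3 groups do not overlap: nearly nothing was left at day 6, where the libraries held 3, 3 and 5 counts, and day 12 stood above day 0. It fell 12.1-fold by day 6 (log2 fold change -3.60 ± 0.319 SE, adjusted p = 8.29e-08) and rose 23.4-fold by day 12 (4.55 ± 0.297, adjusted p = 1.8e-08). Day 12 was 1.93-fold above day 0 (0.95 ± 0.197, adjusted p = 0.000571). The level was low even at its highest, at a mean of 1.33 CPM.

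Cyp27b1 (ENSMUSG00000006724) lies on GRCm38 chromosome 10, 127048250 to 127053006, plus strand, and shares no exon with another gene. The stretch around its start, from 250 bases before to 50 after (RefSeq, GRCm38.p6, plus strand, chr10:127047996-127048295), is shown because the gene has the largest change of the members with 1 CPM or more in a group. It does not hold GCGTG, the core of the dioxin response element, on either strand.
Cyp27b1: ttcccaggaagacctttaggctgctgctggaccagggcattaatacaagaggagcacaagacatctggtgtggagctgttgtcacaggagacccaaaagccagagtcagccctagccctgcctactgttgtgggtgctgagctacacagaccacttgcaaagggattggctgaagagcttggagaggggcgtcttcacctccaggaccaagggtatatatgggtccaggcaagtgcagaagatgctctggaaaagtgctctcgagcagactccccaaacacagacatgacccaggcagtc

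The other vitamin D enzymes stood at lower counts. Cyp27a1, the mitochondrial sterol 27-hydroxylase that also hydroxylates vitamin D, held 0.0239, 0.032 and 0.0144 CPM at day 0, 0.162, 0.256 and 0.275 at day 6, and 0.22, 0.281 and 0.232 at day 12. Day 0 lies below all later libraries, which overlap each other. It rose by day 6 (log2 fold change 3.22 ± 0.511, adjusted p = 4.78e-05) and was not called between day 6 and day 12 (adjusted p = 0.866), with only 5 counts over the 3 day 0 libraries. Cyp24a1, which breaks active vitamin D down, had 13 counts over all 9 libraries and Cyp2r1, the liver 25-hydroxylase, had 1, so neither could be followed.

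Of 14 tested genes on a list of vitamin D, calcium and phosphate handling, 8 rose and 6 fell by day 6, 4 rose and 5 fell from day 6 to day 12, and 10 were higher and 3 lower at day 12 than at day 0. The shares of all genes in these comparisons were 33.5% and 31.4%, 22.6% and 22.7%, and 34.7% and 31.7%. The list's median log2 fold change at day 6 was 0.89, beside 0.02 for all genes. Stc2, a secreted relative of a hormone of calcium and phosphate balance in fish, had the smallest adjusted p of the list: it fell from 231 ± 3.42 to 11 ± 0.381 CPM (adjusted p = 3.88e-19) and rose to 156 ± 0.925. Vdr, the receptor of active vitamin D, rose from 12.9 ± 0.448 to 32.4 ± 0.526 CPM by day 6 and stood at 32.5 ± 2.22 at day 12. Kl, the co-receptor of FGF23, a hormone that lowers Cyp27b1 in the kidney, was picked after its values were seen: it fell from 11.4 ± 0.36 to 3.82 ± 0.2 CPM (adjusted p = 1.55e-11) and rose to 20.2 ± 1.22 (adjusted p = 1.65e-12). Gc, the plasma carrier of vitamin D, rose from 0.783 ± 0.0985 to 23.4 ± 1.45 CPM and then fell to 18.5 ± 1.07. The calcium-binding protein gene S100g rose from 1.7 ± 0.324 to 33.3 ± 2.98 CPM and fell to 22.7 ± 2.73, and Atp2b1, a calcium pump of the plasma membrane, rose from 194 ± 2.96 to 380.0 ± 2.06 and fell to 249 ± 9.81.

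**Figure D2:**
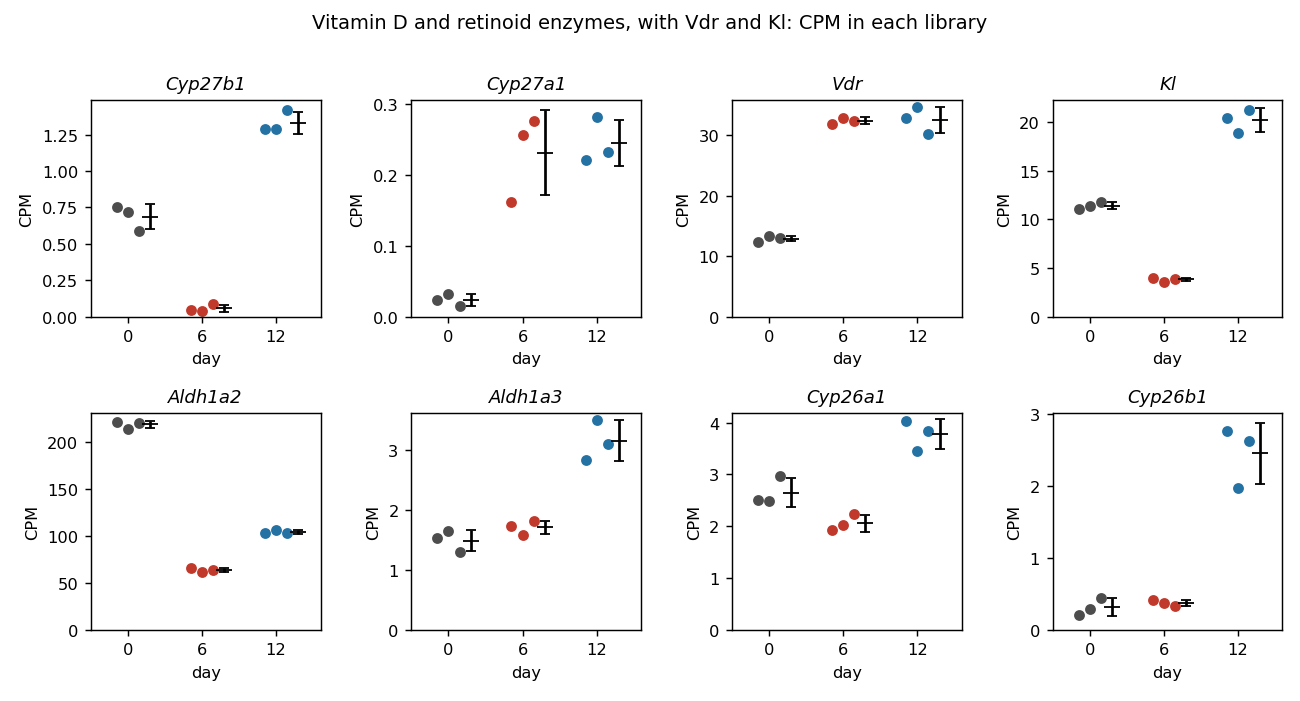
CPM in each library (points: replicates A, B and C from left to right) of vitamin D genes in the upper row and retinoid enzymes in the lower row at days 0, 6 and 12; black marks are the mean and SD of 3 libraries, and each axis starts at 0. Cyp27b1 and Kl are lowest at day 6 and highest at day 12, Aldh1a2 at day 12 stays below day 0, and Cyp26b1 is highest at day 12.

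The retinoid enzymes came next. Aldh1a2, which makes retinoic acid from retinaldehyde, held 222, 214 and 220 CPM at day 0, 65.4, 62.1 and 63.6 at day 6, and 103, 106 and 103 at day 12. All 3 days are apart, with day 12 in the middle. It fell 3.44-fold by day 6 (log2 fold change -1.78 ± 0.0312, adjusted p = 4.41e-16), rose 1.63-fold by day 12 (0.71 ± 0.0311, adjusted p = 2.83e-10) and ended 2.1-fold below day 0. Aldh1a3, a related retinaldehyde dehydrogenase, held 1.53, 1.65 and 1.3 CPM at day 0, 1.74, 1.59 and 1.81 at day 6, and 2.84, 3.51 and 3.11 at day 12. Days 0 and 6 overlap and day 12 stands above both. Its change was 0.20 ± 0.14 at day 6 (adjusted p = 0.23) and 0.88 ± 0.131 from day 6 to day 12 (adjusted p = 6.87e-05). Aldh1a1 was at 0.32 to 0.978 CPM in every library and was called only for day 12 against day 0 (adjusted p = 0.00932), with overlapping groups. Aldh1a7 held 84 counts in all; its call as lower at day 6 (adjusted p = 0.0257) was lost without replicate B or C of day 0 or of day 6, at an adjusted p of 0.0654 to 0.117.

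Next were the enzymes that clear retinoic acid. Cyp26b1 held 0.203, 0.288 and 0.447 CPM at day 0, 0.414, 0.378 and 0.327 at day 6, and 2.76, 1.97 and 2.62 at day 12. Every day 12 library lies above every earlier one, and the earlier groups overlap. It rose 6.52-fold from day 6 to day 12 (log2 fold change 2.7 ± 0.241, adjusted p = 4.8e-07), while day 6 against day 0 gave 0.28 ± 0.3 (adjusted p = 0.437). Cyp26a1, of the same function, stood at 2.65 ± 0.276, 2.06 ± 0.162 and 3.78 ± 0.298 CPM. It was called lower at day 6 (-0.37 ± 0.118, adjusted p = 0.013), a call lost without replicate C of day 0 or replicate A of day 6 (adjusted p = 0.0656 and 0.0537), and rose by 0.88 ± 0.115 to day 12 (adjusted p = 2.1e-05). Cyp26c1 was not tested; it held 8 counts at day 0, 42 at day 6 and 24 at day 12.

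Of 14 tested genes of retinoid transport, conversion and signalling, 11 rose and 3 fell by day 6. The list median was 0.75, beside 0.02 for all genes, of which 33.5% rose and 31.4% fell. From day 6 to day 12, 4 rose and 4 fell, where 22.6% and 22.7% of all genes did. The retinol dehydrogenase gene Rdh10, which supplies retinaldehyde, fell from 94.2 ± 3.98 to 44.4 ± 0.752 CPM and rose to 72.5 ± 2.45. Stra6, a receptor that takes up retinol, rose at both steps, from 15.3 ± 0.254 to 33.7 ± 2.12 and 43.8 ± 1.02 CPM. Rarg, a retinoic acid receptor, rose from 49.6 ± 2.62 to 119 ± 2.04 CPM and fell to 99.1 ± 3.53. Dhrs9, a dehydrogenase of retinol and steroids, rose from 8.77 ± 0.39 to 29.7 ± 1.02 CPM and stood at 27.3 ± 1.46.

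Cyp1b1 belongs to the first P450 family, known for targets of the aryl hydrocarbon receptor. It held 17.9, 17.7 and 21.5 CPM at day 0, 76.7, 72.5 and 68.1 at day 6, and 52.8, 54.9 and 52.3 at day 12. No 2 days overlap, and day 12 is intermediate. It rose 3.81-fold by day 6 (log2 fold change 1.93 ± 0.0628, adjusted p = 5.38e-13) and fell 1.36-fold by day 12 (-0.44 ± 0.0579, adjusted p = 2.13e-05). Cyp1a1, the classical target of the same receptor, had 35 counts over all libraries and Cyp1a2 had none. Of 8 tested genes of this receptor's pathway, 3 rose and 3 fell by day 6, 3 rose and 2 fell from day 6 to day 12, and 3 were higher and 3 lower at day 12 than at day 0. The shares of all genes in these comparisons were 33.5% and 31.4%, 22.6% and 22.7%, and 34.7% and 31.7%. Ahr, the receptor, stood at 40.5 ± 1.97, 61.5 ± 3.3 and 52.3 ± 1.9 CPM, and its target Tiparp at 117 ± 7.99, 84.8 ± 0.932 and 73.1 ± 1.89. Thus Ahr rose and Tiparp fell by day 6, and both fell from day 6 to day 12. Arnt2, a relative of the receptor's partner, rose at both steps, from 29.9 ± 1.05 to 33.0 ± 1.35 and 45.7 ± 0.939 CPM, and the chaperone gene Hsp90ab1 fell from 3140 ± 45.6 to 2470 ± 53.5 and rose to 2820 ± 65.1.

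The sequence around the Cyp1b1 start (RefSeq, GRCm38.p6, minus strand, chr17:79715012-79715311) is shown for the motif that this receptor is known to bind. The capitals mark its 1 match to GCGTG, read here on the opposite strand.
Cyp1b1: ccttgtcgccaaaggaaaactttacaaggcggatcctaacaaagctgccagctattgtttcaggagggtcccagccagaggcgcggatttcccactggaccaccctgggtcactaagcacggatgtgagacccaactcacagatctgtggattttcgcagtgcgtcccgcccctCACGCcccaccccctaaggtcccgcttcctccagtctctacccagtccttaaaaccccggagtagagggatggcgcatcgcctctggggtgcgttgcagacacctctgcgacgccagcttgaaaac
GCGTG, searched on both strands, was in 18 of the 53 member promoters found in the RefSeq table (34.0%) and in 32.5% of 27025 promoters of the same length. The longer TNGCGTG, which contains it, was in 3 (5.7%, beside 5.1%), and TGACNNNGC, the core of the antioxidant response element, in 5 (9.4%, beside 12.5%). Such matches are letters in a window and nothing was drawn from them.

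Among P450s of sterol and steroid metabolism, 4 of 5 rose and 1 fell by day 6, where 33.5% and 31.4% of all genes did. Of the 4, 3 (Cyp11a1, Cyp11b1 and Cyp21a1) reached 50 counts only through the later days. The choice of members thus partly fixes the number risen. Cyp39a1, which 7-alpha-hydroxylates 24-hydroxycholesterol, held 5.64, 5.48 and 5.13 CPM at day 0, 11.3, 11.2 and 11.4 at day 6, and 12.7, 13.5 and 14 at day 12. Each group lies above the one before. It rose 2.08-fold by day 6 (log2 fold change 1.06 ± 0.0619, adjusted p = 5.84e-10) and by a further 0.24 ± 0.0571 (adjusted p = 0.00285). Cyp46a1, the cholesterol 24-hydroxylase that makes the substrate of Cyp39a1, went from 1.25 to 0.647 and 0.829 CPM. It fell by day 6 (adjusted p = 0.00106); its call as lower at day 12 than at day 0 (adjusted p = 0.0197) was lost without replicate C of day 0 or replicate A of day 12 (adjusted p = 0.0635 and 0.0837).

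The steroid-synthesis P450s Cyp11a1, Cyp11b1 and Cyp21a1 were counted at under 1 CPM in every library, and all 3 were called higher at day 6. Cyp11b1, the 11-beta-hydroxylase, had 2 counts at day 0, 106 at day 6 and 45 at day 12, a ratio of 57.2 (95% interval 15.4 to 478, counting error only) for day 6 and of 22.8 (5.97 to 194) for day 12. Both day 0 counts were in replicate C: its log2 fold change at day 6, 5.61, was 8.24 without that library and 4.99 without replicate A, and at day 12, 4.27, it was 6.9 and 3.66. Its later fall from day 6 (adjusted p = 0.0175) was lost without replicate C of day 6 or replicate B of day 12 (adjusted p = 0.115 and 0.0578). Cyp21a1, the 21-hydroxylase, had 4 counts at day 0, all in replicate A, 82 at day 6 and 84 at day 12, and its log2 fold changes of 4.35 and 4.32 against day 0 were 7.8 and 7.78 without that library; 21.3% of its 50-base words recur in its pseudogene. Cyp11a1, the side-chain cleavage enzyme, had 13, 57 and 57 counts. Cyp17a1 had 2 counts in all, and Cyp11b2 and Cyp19a1 had none.

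All 8 omega-hydroxylases of fatty acids (Cyp4 genes) were called at day 6, 5 higher and 3 lower, beside 33.5% and 31.4% of all genes. The call of Cyp4a12a, among the 3, was weak, as given below. Cyp4a12b, which makes the vasoactive lipid 20-HETE, held 5.29, 4.78 and 5.97 CPM at day 0, 1.55, 1.92 and 1.88 at day 6, and 5.45, 5.83 and 5.15 at day 12. Day 6 lies below both other groups, which overlap. It fell 3-fold (log2 fold change -1.59 ± 0.113, adjusted p = 6.14e-09) and rose 3.08-fold (1.62 ± 0.113, adjusted p = 3.42e-08), and day 12 against day 0 gave 0.04 ± 0.0989 (adjusted p = 0.769). Its near copy Cyp4a12a, with which it shares 49.4% of its 50-base words, held 76 counts in all, so reads may have been split between them. The call of Cyp4a12a as lower at day 6 (log2 fold change -1.71, adjusted p = 0.049) was lost in 7 of the 9 fits that left out a library (adjusted p = 0.059 to 0.283 in these). The change was -1.09 without replicate A of day 0 (adjusted p = 0.283) and -2.83 without replicate A of day 6 (adjusted p = 0.0175). Cyp4b1, a hydroxylase of fatty acids and xenobiotics, fell at both steps, from 12.5 ± 0.332 to 8.06 ± 1.1 and 6.19 ± 0.655 CPM. Cyp4v3 rose from 4.57 to 10.1 CPM and stood at 9.41 at day 12, Cyp4f39 rose from 21 to 64 counts (adjusted p = 0.00326), and Cyp4f13, Cyp4f16 and Cyp4f17 rose 1.24- to 1.38-fold by day 6 and were not called from day 6 to day 12.

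Of the family 2 and 3 P450s, known for xenobiotics and for epoxides of arachidonic acid, 3 of 7 rose by day 6 and none fell. The shares of all genes were 33.5% risen and 31.4% fallen. Cyp2j9, one of the epoxygenases, held 0.227, 0.304 and 0.245 CPM at day 0, 0.916, 1.35 and 0.757 at day 6, and 0.84, 1.08 and 0.729 at day 12. Day 0 lies below all later libraries, and days 6 and 12 overlap. It rose 3.94-fold by day 6 (log2 fold change 1.98 ± 0.28, adjusted p = 1.48e-05), and day 12 against day 6 gave -0.19 ± 0.239 (adjusted p = 0.548). Cyp2d22 rose from 9.63 ± 0.126 to 18.5 ± 0.732 and then to 21.8 ± 0.847 CPM, and Cyp2j6 rose from 9.79 to 16.6 CPM. From day 6 to day 12, 3 members of these families had weak calls: Cyp2j6 as lower (adjusted p = 0.025), Cyp3a13 as lower (0.0349) and Cyp2s1 as higher (0.0491). Cyp2j6 lost its call without replicate B of day 6 (0.136) or replicate C of day 12 (0.0946), and Cyp3a13 without replicate A (0.0753) or B (0.177) of day 6 or replicate B (0.151) or C (0.0573) of day 12. Cyp2s1 lost it without any of 8 libraries (0.0514 to 0.194). Cyp2e1, the whole mouse Cyp3a group but Cyp3a13 and Cyp3a25, and all but Cyp2c23, Cyp2c65 and Cyp2c55 of the Cyp2c genes had no count. Cyp2j5 and Cyp2u1 were called in none of the 3 comparisons (adjusted p = 0.0518 at the lowest), at 46 to 74 and 260 to 346 counts a group. Cyp20a1, a P450 without a known substrate, fell from 44.4 to 33.9 CPM and rose to 39.7.

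P450s draw electrons from Por in the endoplasmic reticulum and from Fdx1 and Fdxr in mitochondria. Of 13 tested genes on a list of P450 redox partners, 6 rose and 1 fell by day 6. Among all genes, 33.5% rose and 31.4% fell. The list also holds Alas1 of haem synthesis, the haem oxygenases Hmox1 and Hmox2, and the haem-binding Pgrmc1 and Pgrmc2, which are not electron donors. The 6 risen were Cyb5a, Cyb5r3, Fdxr, Alas1, Hmox1 and Pgrmc2. The one that fell was Por, at 383 ± 1.5 CPM before and 233 ± 3.95 CPM after (a log2 fold change of -0.72 ± 0.0281, adjusted p = 4.87e-12), and it rose to 314 ± 3.21 at day 12. Fdx1 stood at 8.05 ± 0.808, 7.46 ± 0.344 and 8.74 ± 0.67 CPM, and Fdxr rose at both steps, from 3.65 to 4.45 and 6.03 CPM. Cyb5a, cytochrome b5, rose from 12.4 to 17.7 CPM and stood at 17.5, and Hmox1, a haem oxygenase that also takes electrons from Por, rose from 21.5 to 35.9 and stood at 36.0.

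Among the ALDH genes outside the retinoid group, 6 of 6 enzymes of amino acid and GABA metabolism were called lower by day 6. Their median log2 fold change was -0.49, and 31.4% of all genes fell in the same comparison. From day 6 to day 12, 5 of these 6 enzymes rose, where 22.6% of all genes did, and Aldh9a1 was not called (adjusted p = 0.734). Aldh18a1, which starts proline synthesis, held 178, 177 and 171 CPM at day 0, 111, 113 and 109 at day 6, and 127, 128 and 123 at day 12. The groups do not overlap and day 12 lies between the others. Its changes were -0.66 ± 0.03 (adjusted p = 2.94e-11) and 0.18 ± 0.0301 (adjusted p = 0.000169). Aldh5a1, which clears succinate semialdehyde, the breakdown product of GABA, held 12.9, 12.2 and 12 CPM at day 0, 8.26, 7.31 and 8.5 at day 6, and 9.61, 9.99 and 9.41 at day 12. Here too the groups do not overlap, with day 12 in between. Its changes were -0.63 ± 0.0653 (adjusted p = 5.11e-07) and 0.27 ± 0.0666 (adjusted p = 0.00363). The other 4 fell 1.1- to 1.48-fold by day 6. Aldh4a1 of proline breakdown fell the most (40.1 to 27.2 CPM) and Aldh6a1 of valine breakdown the least (55.6 to 50.3 CPM). Aldh4a1 shares 1595 exon bases and 30.0% of its 50-base words with Gm21969 on its own strand, so its level is less certain. Aldh7a1, of lysine breakdown, ended above its start, at 50.5, 44.0 and 55.2 CPM on the 3 days (adjusted p = 0.00696 for day 12 against day 0). Aldh16a1, outside these groups, fell from 56.1 to 48.3 CPM.

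The folate enzymes of the family moved apart at day 6. Aldh1l2, the mitochondrial 10-formyltetrahydrofolate dehydrogenase, held 196, 200 and 206 CPM at day 0, 55, 57.2 and 51.7 at day 6, and 72.5, 69 and 73.7 at day 12. Day 0 stands far above the rest, and day 12 above day 6. It fell 3.67-fold by day 6 (log2 fold change -1.87 ± 0.0396, adjusted p = 3.29e-15) and rose 1.31-fold by day 12 (0.39 ± 0.0399, adjusted p = 1.93e-06). Aldh1l1, the cytosolic form, rose from 14 counts over the day 0 libraries to 66 at day 6 (adjusted p = 0.000326), and all its libraries were under 1 CPM. On the other strand, genes overlap Aldh1l2 over 1056 exon bases and Aldh1l1 over 499. The strand setting of the counting is not given in the sources used here. Aldh1l1 also shares 105 exon bases with a gene on its own strand.

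Of 4 tested enzymes of aliphatic and lipid aldehydes, 2 rose and none fell by day 6, beside 33.5% and 31.4% of all genes. Aldh2, the mitochondrial enzyme that clears acetaldehyde, held 107, 102 and 107 CPM at day 0, 159, 158 and 157 at day 6, and 169, 168 and 159 at day 12. Day 0 lies below all later libraries. It rose 1.5-fold by day 6 (log2 fold change 0.58 ± 0.0321, adjusted p = 3.01e-10), and day 12 against day 6 gave 0.07 ± 0.0317 (adjusted p = 0.0947). Aldh3b1 rose from 63.3 to 89.2 CPM. Aldh3a2, the fatty aldehyde dehydrogenase, stood at 67.9, 69.1 and 70.2 CPM and was called in none of the 3 comparisons, with differences of 0.03, 0.02 and 0.05 and an SE near 0.0316. Aldh3b2, not tested, had 42, 9 and 21 counts, and 24.2% of its 50-base words recur in Aldh3b3. Aldh1b1 was called higher at day 12 than at day 6 (adjusted p = 0.0342), which was lost without replicate B or C of day 6 or of day 12 (adjusted p = 0.0879 to 0.111).

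Within the AKR family, all 4 Akr1b genes (aldose reductase and its relatives) fell by day 6. All 4 were lower at day 12 than at day 0. Of all genes, 31.4% and 31.7% were called lower in these comparisons. Akr1b3, mouse aldose reductase, which turns glucose into sorbitol, held 258, 226 and 262 CPM at day 0, 69.5, 67.7 and 67.2 at day 6, and 101, 88.6 and 97.9 at day 12. Day 0 is highest, day 6 lowest, and no libraries of different days overlap. It fell 3.65-fold by day 6 (log2 fold change -1.87 ± 0.0556, adjusted p = 1.92e-13) and rose 1.41-fold by day 12 (0.49 ± 0.0555, adjusted p = 5.02e-06). Akr1b7 held 1.25, 1.1 and 1.21 CPM, then 0.281, 0.148 and 0.275, and then 0.504, 0.603 and 0.497, again with no overlap. Its changes were -2.35 ± 0.25 (adjusted p = 6.47e-07) and 1.20 ± 0.27 (adjusted p = 0.00205). Akr1b10 held 23.8, 23.9 and 26.2 CPM at day 0, 14.1, 13.2 and 14.6 at day 6, and 16.7, 18.4 and 16.1 at day 12, with day 12 between the others. Its changes were -0.82 ± 0.061 (adjusted p = 1.06e-08) and 0.29 ± 0.0624 (adjusted p = 0.00152).

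Of the Akr1c genes, hydroxysteroid dehydrogenases, 4 of 6 rose and 1 fell by day 6, where 33.5% and 31.4% of all genes did. Akr1c18, which inactivates progesterone, held 0.167, 0.0799 and 0.144 CPM at day 0, 2.19, 2.09 and 1.57 at day 6, and 1.49, 1.58 and 1.24 at day 12. Day 0 is far below the later groups, which overlap. It rose 14.4-fold by day 6 (log2 fold change 3.85 ± 0.253, adjusted p = 2.42e-09), and day 12 against day 6 gave -0.44 ± 0.181 (adjusted p = 0.0616). Akr1c14, a 3-alpha-hydroxysteroid dehydrogenase, held 2.4, 3.24 and 2.52 CPM at day 0, 9.48, 11.1 and 10.7 at day 6, and 7.39, 7.93 and 8.7 at day 12. The groups do not overlap, and it rose 3.85-fold by day 6 (1.95 ± 0.106, adjusted p = 2.53e-10) and fell 1.3-fold by day 12 (-0.38 ± 0.0938, adjusted p = 0.00392). Akr1c19 was the one that fell: it held 33.8, 32.6 and 33.3 CPM at day 0, 15.3, 14.8 and 16.1 at day 6, and 15.3, 16.4 and 16.6 at day 12. Its fall at day 6 was -1.11 ± 0.0466 (adjusted p = 1.06e-11), and days 6 and 12 overlap. Akr1c20 was at 34, 27 and 76 counts and rose from day 6 to day 12 (adjusted p = 0.00378). Akr1c12 and Akr1c13 rose 1.52- and 1.44-fold by day 6 and share 24.2% to 28.6% of their 50-base words with each other. Akr1a1, aldehyde reductase, was the AKR gene with the highest level per length, at 410 TPM (the authors' length-scaled values) at day 0, and rose by 0.19 ± 0.0307 by day 6. Akr1e1 fell from 40.5 to 24.9 CPM and rose to 34.4, Akr7a5 rose from 18.5 to 22.5 CPM, and Akr1b8 fell from 50.5 to 38.2 CPM.

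**Figure D3:**
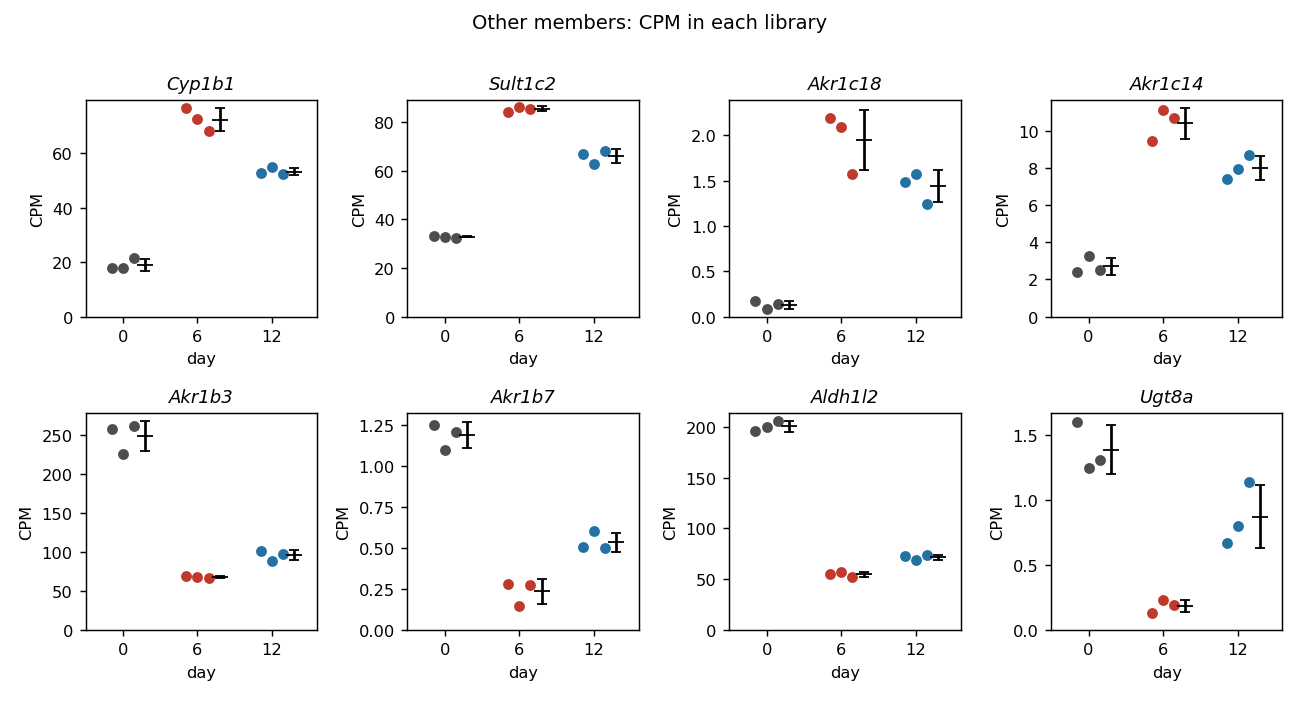
CPM in each library (points: replicates A, B and C from left to right) of Cyp1b1, Sult1c2, Akr1c18, Akr1c14, Akr1b3, Akr1b7, Aldh1l2 and Ugt8a at days 0, 6 and 12; black marks are the mean and SD of 3 libraries, and each axis starts at 0. The first 4 are lowest at day 0, while Akr1b3, Akr1b7, Aldh1l2 and Ugt8a are lowest at day 6 and do not return to day 0 on average.

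The Ugt1a genes lie together on GRCm38 chromosome 1, plus strand, each with its own start and first exon and with the later exons shared: Ugt1a6b runs from 88103252 to 88219003, Ugt1a6a from 88134809 to 88218997, Ugt1a2 from 88200601 and Ugt1a1 from 88211959 to the same end. From 52.1% to 79.8% of the 50-base words of the 5 members recur in another gene, and how the counting treated reads shared between genes is not given in the sources used here, so the levels of single members are uncertain. On the other strand, Gm20528 shares 922 exon bases with Ugt1a1 and 394 with each other Ugt1a member, and the strand setting is not stated. Ugt1a1, the enzyme that glucuronidates bilirubin, and Ugt1a6a, which acts on phenols, moved in opposite directions. Their starts are shown for that reason (RefSeq, GRCm38.p6, plus strand, chr1:88134559-88134858 and chr1:88211709-88212008).
Ugt1a6a: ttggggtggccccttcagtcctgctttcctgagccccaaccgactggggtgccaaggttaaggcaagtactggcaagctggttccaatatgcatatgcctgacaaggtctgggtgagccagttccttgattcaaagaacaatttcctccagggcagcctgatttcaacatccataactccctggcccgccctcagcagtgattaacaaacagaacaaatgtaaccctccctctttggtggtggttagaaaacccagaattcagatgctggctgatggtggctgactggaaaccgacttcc
Ugt1a1: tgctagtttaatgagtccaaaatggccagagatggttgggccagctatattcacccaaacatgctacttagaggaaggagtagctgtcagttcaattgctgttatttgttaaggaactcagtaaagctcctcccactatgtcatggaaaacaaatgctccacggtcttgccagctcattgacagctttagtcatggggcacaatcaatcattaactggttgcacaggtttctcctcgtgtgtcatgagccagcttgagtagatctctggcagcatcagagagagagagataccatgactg
Neither window holds GCGTG on either strand.

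Ugt1a6a held 5.02, 4.39 and 6.11 CPM at day 0, 40.9, 45.2 and 39.7 at day 6, and 28.6, 29.7 and 32.4 at day 12. The groups do not overlap, with day 6 highest. It rose 8.09-fold by day 6 (log2 fold change 3.02 ± 0.0875, adjusted p = 1.43e-13) and fell 1.39-fold by day 12 (-0.47 ± 0.0725, adjusted p = 8.64e-05). Ugt1a6b, its near copy, held 0.167, 0.208 and 0.101 CPM, then 2.53, 1.77 and 1.38, and then 0.969, 1.43 and 0.812, so days 6 and 12 overlap. It rose 11.9-fold (3.57 ± 0.328, adjusted p = 1.24e-07); the call as lower at day 12 than at day 6 (adjusted p = 0.0156) was lost without replicate A of day 6 (0.11) or replicate A (0.0562) or C (0.068) of day 12.

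Ugt1a1 went from 21.1 ± 1.03 to 4.81 ± 0.16 and 6.56 ± 0.424 CPM. It fell 4.39-fold by day 6 (log2 fold change -2.14 ± 0.0647, adjusted p = 2.38e-13) and rose 1.36-fold by day 12 (0.45 ± 0.0705, adjusted p = 0.000118). Ugt1a2 fell 6.02-fold, from 1.65 to 0.269 CPM (adjusted p = 1.78e-06), and its call as higher at day 12 (adjusted p = 0.0416) was lost in 6 of the 9 fits that left out a library (adjusted p = 0.0523 to 0.202 in these). Ugt1a7c stood at 10.3, 10.2 and 10.1 CPM and was called in none of the 3 comparisons (log2 fold changes of -0.03, 0.00 and -0.03, each with an SE near 0.0639). On the log2(TPM + 1) scale, before the shift of all genes was removed, Ugt1a7c was called higher at day 12 than at day 0 (0.254, adjusted p = 0.00596).

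Summed over 9 Ugt1a genes, the locus gave 38.6 ± 1.41 CPM in untreated cells, 59.1 ± 2.65 CPM by day 6 and 48.7 ± 1.31 CPM by day 12. Of its counts, Ugt1a1 took 54.7% ± 1.39 (SD, n = 3) on day 0, then 8.16% ± 0.615 and lastly 13.5% ± 0.767. Ugt1a6a and Ugt1a6b together took 13.8% ± 1.97, 74.1% ± 2.02 and 64.3% ± 1.99. The shares of the 3 days do not overlap in either case. From the authors' TPM, the Ugt1a1 share was 60.2%, 8.84% and 14.7%, and that of the Ugt1a6 pair 14.4%, 77.1% and 67.5%. These shares were computed after the members' values had been seen.

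**Figure D4:**
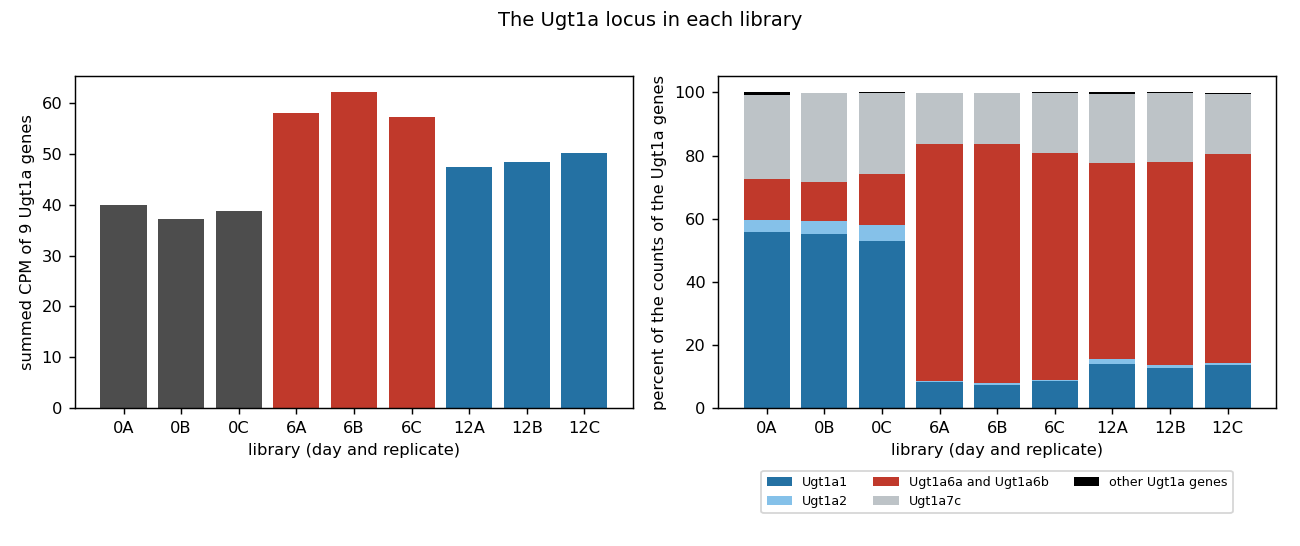
Left, summed CPM of the 9 Ugt1a genes in each library; right, the percent of the locus's counts assigned to each gene or group of genes, stacked, with libraries named by day and replicate. Ugt1a1 takes 53.1% to 55.8% of the counts in the day 0 libraries and 7.49% to 8.69% at day 6, where Ugt1a6a and Ugt1a6b take 71.8% to 75.6%.

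Ugt8a, which makes galactosylceramide by adding galactose rather than glucuronic acid, held 1.6, 1.25 and 1.31 CPM at day 0, 0.133, 0.229 and 0.189 at day 6, and 0.672, 0.804 and 1.14 at day 12. The groups do not overlap and day 12 lies between the others. It fell 7.47-fold by day 6 (log2 fold change -2.90 ± 0.277, adjusted p = 1.94e-07) and rose 4.64-fold by day 12 (2.22 ± 0.289, adjusted p = 2.05e-05). Its call as lower at day 12 than at day 0 (adjusted p = 0.013) was lost without replicate A of day 0 (0.0689) or replicate A of day 12 (0.0699). No Ugt2 or Ugt3 gene had a count.

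Sult1c2, a sulfotransferase of phenols, held 33, 32.9 and 32.5 CPM at day 0, 84.3, 86.3 and 85.5 at day 6, and 66.9, 62.7 and 68.1 at day 12. The groups are well apart. It rose 2.6-fold by day 6 (log2 fold change 1.38 ± 0.0351, adjusted p = 3e-14) and fell 1.3-fold by day 12 (-0.37 ± 0.0335, adjusted p = 5e-07). Sult2b1, which sulfates cholesterol, held 1.72, 2.25 and 1.86 CPM, then 3.26, 3.29 and 3.6, and then 3.66, 3.09 and 3.15. It rose 1.75-fold by day 6 (0.81 ± 0.122, adjusted p = 2.89e-05), and days 6 and 12 overlap. Sult1a1 had 5, 43 and 18 counts at the 3 days; it rose by day 6 (adjusted p = 0.000703), and its call as lower at day 12 than at day 6, at an adjusted p of 0.05 after rounding, was lost without any of 6 libraries (0.0594 to 0.169). Sult5a1, not tested, had 3, 29 and 21 counts, a ratio of 10.4 (95% interval 3.23 to 53.5, counting error only) for day 6. Sult6b1 stood at 83, 81 and 85 counts and was called in no comparison.

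Glucuronidation and sulfation need activated donors. Of 13 tested genes on a list of cofactor supply, 5 rose and 7 fell by day 6. The median log2 fold change was -0.09, and among all genes 33.5% rose and 31.4% fell. The list also holds Gusb, Sulf2, Bpnt1 and Impad1, which do not supply these donors. Ugp2, which makes UDP-glucose, rose from 75.3 ± 0.568 to 172 ± 5.37 CPM and stood at 169 ± 7.59 at day 12. Ugdh, which oxidises UDP-glucose to the glucuronic acid donor, rose from 128 ± 3.08 to 154 ± 5.09 CPM and fell back to 127 ± 1.35. Papss2, which makes the sulfate donor, rose from 3.88 ± 0.145 to 12.6 ± 1.06 CPM and stood at 12.9 ± 0.739. Papss1, which makes the same donor and stood higher, fell from 111 ± 3.33 to 93.1 ± 3.67 CPM (adjusted p = 9.63e-06). It then rose to 106 ± 1.24. Bpnt1 and Impad1, phosphatases that break down the nucleotide left after sulfation, fell: Bpnt1 from 43.1 ± 0.876 to 24.3 ± 1.25 CPM (adjusted p = 7.37e-11), then rising to 30.9 ± 0.128, and Impad1 from 240.0 ± 2.33 to 177 ± 3.14 CPM (adjusted p = 1.6e-08) and further to 162 ± 7.62. Of 18 tested other enzymes of the same kind of metabolism, 10 rose and 6 fell by day 6, among them Xdh, xanthine dehydrogenase, which rose from 67.3 ± 1.72 to 458 ± 4.38 CPM and fell to 300.0 ± 15.3. Inmt, an N-methyltransferase, rose at both steps, from 2.13 ± 0.0833 to 5.19 ± 0.514 and 6.82 ± 0.33 CPM. Ephx1, microsomal epoxide hydrolase, stood at 135 ± 1.15 and 138 ± 4.4 CPM and rose to 206 ± 7.73 at day 12. Cbr1, a carbonyl reductase, fell from 108 ± 3.83 to 68.3 ± 3.26 CPM and stood at 70.5 ± 0.783.

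Of 14 tested nuclear receptors and other regulators of these enzymes, 11 rose and 2 fell by day 6, and 4 rose and 4 fell from day 6 to day 12. Among all genes, 33.5% rose and 31.4% fell by day 6, and 22.6% and 22.7% from day 6 to day 12. Pparg, a fatty acid receptor, rose from 3.11 ± 0.191 to 12.7 ± 1.25 CPM and stood at 13.2 ± 0.402. Cebpa rose from 0.835 ± 0.225 to 9.78 ± 0.481 CPM and stood at 8.96 ± 0.477, and Cebpb rose at both steps, from 27.4 ± 1.01 to 71.0 ± 1.72 and 81.6 ± 4.84. Nfe2l2, the regulator of antioxidant enzymes, rose from 85.6 ± 0.749 to 122 ± 3.74 CPM and fell to 112 ± 1.45. The xenobiotic receptors Nr1i2 and Nr1i3 were at 0.162 CPM or less in every library and were not tested. Hnf4a, a nuclear receptor of liver and kidney, had 4 counts over all libraries.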

How the data were processed

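PolyA RNA-seq of 9 libraries was analysed. The authors deposited whole-number counts per gene and TPM; the submitters' processing notes name STAR 2.7.8a, RSEM 1.3.3, cutadapt 2.3, FastQC 0.11.8 and the build GRCm38. What each tool did, the strand setting and any rounding of estimated counts is not given in the sources used here. Of the table's entries, 4 transgenes (0.00204% to 0.00284% of counts) were left out. Genes were filtered by group with filterByExpr, scaled by TMM and tested in 1 fit of 9 libraries (quasi-likelihood F test of edgeR 4.0.16 in R 4.3.3, 6 residual degrees of freedom, Benjamini-Hochberg adjustment over 16353 genes). "Rose" and "fell" are used of genes whose adjusted p is under 0.05. SEs were derived from the F statistic. CPM are TMM-normalised; errors are SD of 3 libraries. The authors' TPM served for levels per length and, with limma 3.58.1, as an alternative; others were DESeq2 1.42.0, other scalings, no filter, 2 groups only, a replicate block and leaving out each library. The fit was tested on simulated data. Positions and shared 50-base words came from GENCODE M21 on GRCm38, promoters from RefSeq.

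The members and gene lists were chosen with earlier results of these data known. Values in every library are given for the vitamin D enzymes and, by family, for up to 6 members (3 in UGT and SULT) with the largest change, an adjusted p under 0.05 and a mean of 1 CPM or more; other genes were named freely. Context genes given with values were the up to 4 of a list with the smallest adjusted p and a few fixed regulators. Kl, Papss1, Nr1i2 and Nr1i3 were named after their values were seen. No libraries of a group agreed within sampling noise (chi-square per degree of freedom 4.89 to 37.7).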

Additional observations from a re-analysis of the deposited data

How the results depend on the processing

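The members made 144 calls over the 3 comparisons. Of these, 117 held under every setting run and 27 were lost under 1 or more, 14 of them under TPM alone. The number that fell from day 6 to day 12 (11) was 5 with log2(TPM + 1), 4 with log2(TPM + 0.1) and 7 to 13 on leaving out 1 library, lowest without replicate C of day 12. The number lower at day 12 than at day 0 (19) was 12 with log2(TPM + 0.1). On these scales the median of all genes moved by 0.164 and 0.208 between day 6 and day 12. Members called in at least one fit turned direction under TPM alone, at the first and the second pseudocount: from day 6 to day 12, Akr1a1 (0.0823 and 0.0825), Akr1b8 (0.115 and 0.117) and Cyp2j6 (0.0558 and 0.0631); from day 0 to day 12, Aldh16a1 (0.0652 and 0.0669), Cyp20a1 (0.0461 and 0.0473) and Ugt1a7c (0.254 and 0.298). The cause was not tested beyond rescaling: with TPM rescaled by the median of ratios, an alternative chosen after seeing the data, no member turned. A first form of it, with the median subtracted after the logarithm, turned 11 values and was left out because it moves genes near 0 by the whole shift. Replicate letters did not pair the libraries (same-letter correlations of -0.0834 to 0.0783; 3 of 9 libraries correlated best with their own letter). With a replicate block, 28 rose and 25 fell by day 6, 24 and 10 from day 6 to day 12, and 35 and 19 from day 0 to day 12. At 1 count worth 0.0119 to 0.0172 CPM, members under 1 CPM are the least precise.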
